A study of Mus musculus with 3 samples.

Results

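The genes described here are 10 salt and proton transporters of the colon lining: Slc26a3, Slc9a2, Slc9a3, Atp12a, Scnn1a, Scnn1b, Scnn1g, Cftr, Best2 and Slc12a2. They were picked by name for their known roles, not for any value in these data, and all 10 were found among the 32285 genes of the matrices. The study profiled dissociated mouse colon by droplet single-cell RNA sequencing of transcript 3′ ends, where a short random tag, the UMI, marks each captured molecule so that copies are counted once. All mice were germ-free at the start. One library came from mice given PBS, one from mice colonized with a strain labelled BT WT, and one from mice colonized with BT mutant. What BT stands for, which mutation was used, how long colonization lasted, and the age and number of the animals are not in the labels. Where 3 values stand in a row without names, they are in the order PBS, BT WT, BT mutant. With 1 library per group there is no replicate check and no test, so every ratio below compares libraries. Intervals are exact 95% intervals and cover counting error only.

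The colon absorbs sodium chloride and water and also secretes chloride, bicarbonate and potassium. Absorbing surface cells pair the sodium-proton exchangers Slc9a3 (NHE3) and Slc9a2 (NHE2) with the chloride-bicarbonate exchanger Slc26a3 (DRA), and the pump Atp12a moves protons out in exchange for potassium. The epithelial sodium channel, which aldosterone raises in the distal colon, is built from the subunits Scnn1a, Scnn1b and Scnn1g. On the secretory side, Slc12a2 (NKCC1) loads chloride through the basal membrane, Cftr is the apical chloride channel, and Best2 is an anion channel tied to bicarbonate in goblet cells.

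The filters kept 3198, 7070 and 6138 cells from libraries of 42003444 to 55436776 UMIs. Cells were clustered without the 10 genes, and clusters were named from marker genes that exclude them, so a class is called "like" its type. Colonocyte-like cells, the absorptive lining cells, numbered 1139, 3345 and 3159, goblet-like (mucus) cells 193, 830 and 142, stem and transit-amplifying-like (stem/TA-like) cells 30, 50 and 55, and tuft-like cells 40, 88 and 124. An unnamed epithelial cluster of 75, 188 and 304 cells was led by Aqp4, Gsdmc4, Hao2 and Wfdc2. The stem/TA-like cluster was led by Gcg and Pyy ahead of Mki67. The libraries stood apart among colonocyte-like cells: cluster 12 held PBS cells only (367, with 11542661 of that library's 12973833 colonocyte-like UMIs), cluster 5 held 671 PBS cells at a median of 856 UMIs, cluster 1 held 2160 BT WT and 98 BT mutant cells, and cluster 0 held 665 BT WT and 1954 BT mutant cells. Such clusters can be a library rather than a cell type, so ratios against PBS in colonocyte-like cells rest almost wholly on separate clusters. Median mitochondrial shares over cells were 9.93% in PBS and 18.1% and 18.0% in the others. The ratios use summed UMIs, and cluster 12, with most PBS UMIs, had a median of 16.6%. Cluster 6, with 61.4% of the BT mutant UMIs, had 14.3% in that library. Slc26a3 was still among the leading genes of clusters 0 and 9, and Atp12a of cluster 1. Libraries shared between 8 and 19 barcodes per pair.

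Levels are given as CPM, the UMIs of a gene per 1000000 UMIs of a class in 1 library. They were not compared between genes. Cells that should lack these transporters showed how much free RNA droplets carried: B-like cells held Slc26a3 at 87.0, 63.2 and 78.4 CPM, and Scnn1b at 0.786, 0.765 and 0. The plot of levels by class shows each of the 10 genes.

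**Figure D1:**
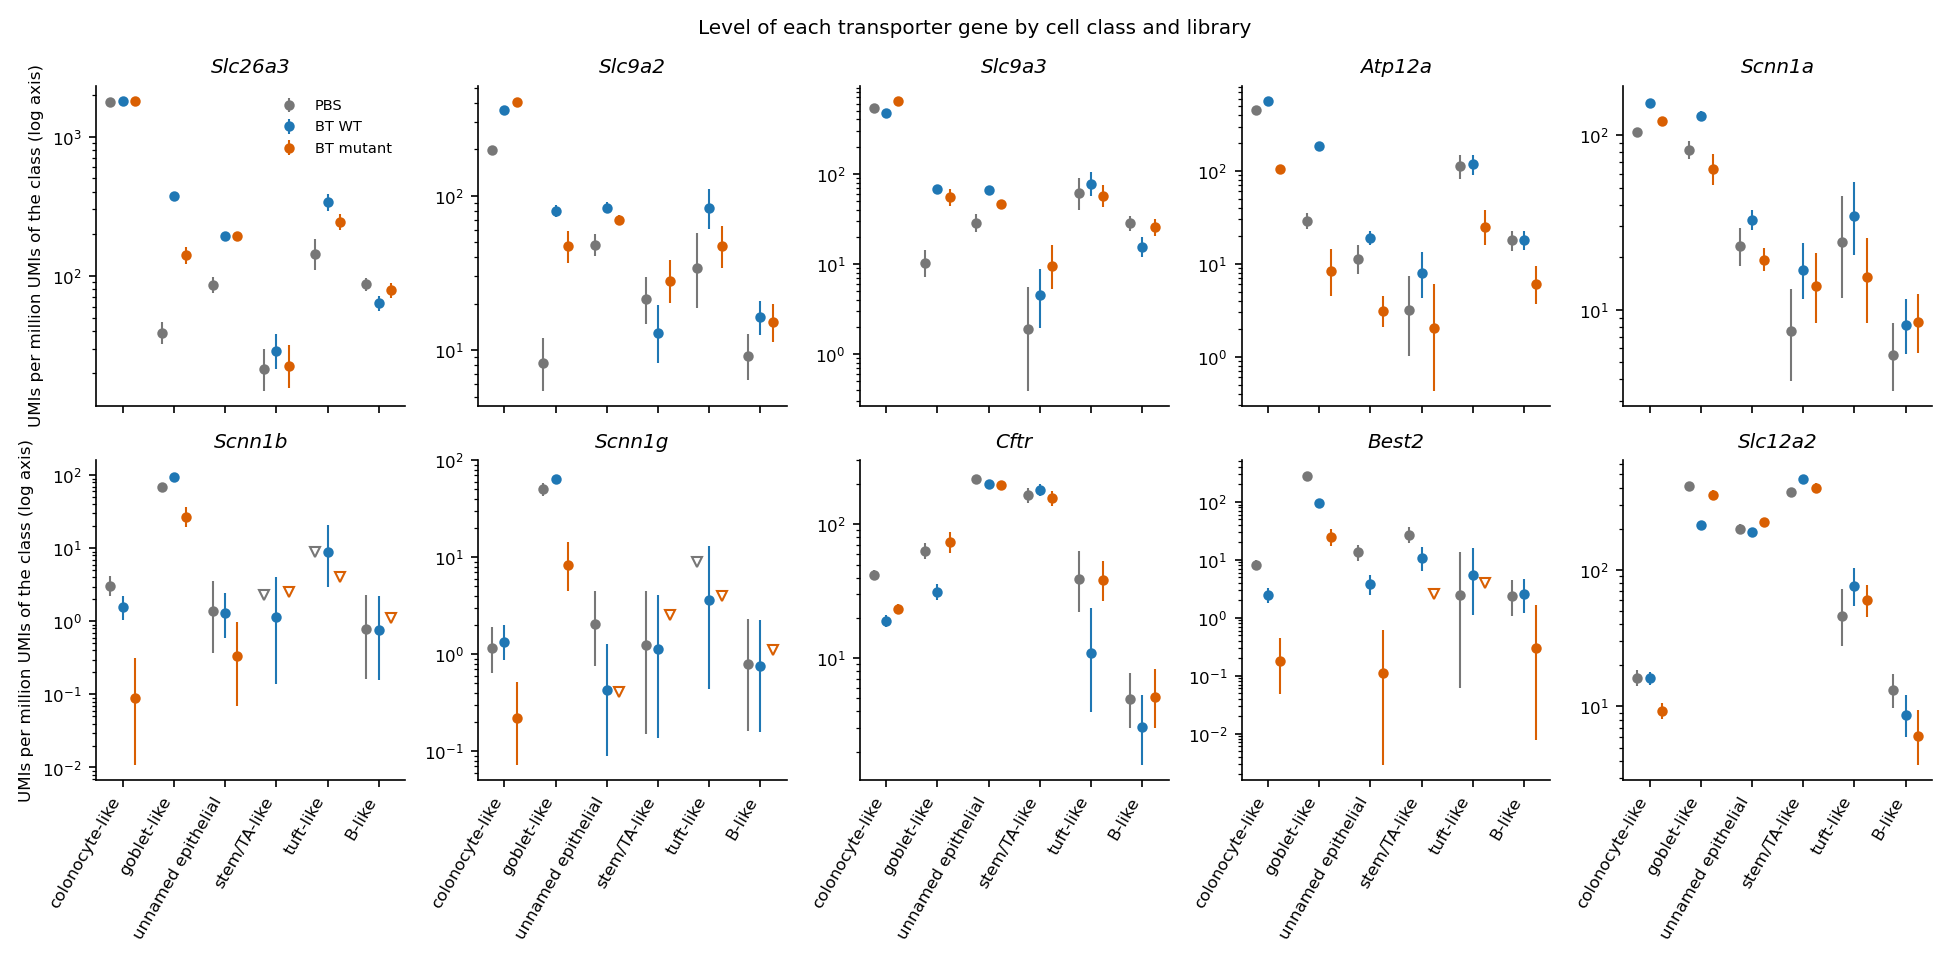
Level of each gene (CPM, log axis) in 6 cell classes and 3 libraries, with exact 95% Poisson intervals; an open triangle marks the upper limit where no UMI was counted. Slc26a3, Slc9a2, Slc9a3 and Atp12a peak in colonocyte-like cells, Scnn1b, Scnn1g and Best2 in goblet-like cells, and Cftr in the unnamed epithelial cluster and stem/TA-like cells.

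The absorptive genes lay in colonocyte-like cells. Of all UMIs in kept cells, these cells held 89.0% for Slc26a3, 85.3% for Slc9a2, 90.5% for Slc9a3 and 86.9% for Atp12a. In each library, each of the 4 genes was higher in colonocyte-like cells than in goblet-like, stem/TA-like, tuft-like and unnamed epithelial cells, beyond the counting intervals. The smallest such gap was 2.96-fold on the CPM + 10 scale, for Atp12a against goblet-like cells. The order of goblet-like and tuft-like cells was not resolved for any of the 4. Tuft-like and goblet-like levels stand beside colonocyte marker RNA of 4809 to 7261 and 3570 to 9691 CPM in those classes, and how much of the absorptive genes' UMIs there was carried over from colonocytes was not tested. In the plasma-like cells Slc26a3 stood at 546, 912 and 833 CPM, beside 11084 to 15039 CPM of colonocyte markers.

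Slc26a3 (ENSMUSG00000001225, chromosome 12, 31390871 to 31473917 on GRCm38) was level in the colonocyte-like sums of the 3 libraries. It stood at 1762 CPM in PBS, 1792 in BT WT and 1797 in BT mutant colonocyte-like cells. The log2 ratios were 0.024 for BT WT over PBS and 0.0039 for BT mutant over BT WT. In 5 clusters with at least 50 cells of both colonized libraries, Slc26a3 was lower in BT mutant in 2 and higher in 3. It passed 1.5-fold in 1, the shallow cluster 10, at 294, 495 and 1042 CPM from 28, 74 and 547 UMIs. Colonocyte markers stood at 8182, 16614 and 21897 CPM in that cluster, and their part was not tested. After thinning each cell to 1000 UMIs, 57.7%, 73.7% and 72.2% of these cells had at least 1 Slc26a3 UMI (66.4%, 92.6% and 89.0% unthinned). Cells deep enough for thinning numbered 685, 3177 and 2981. B-like cells gave 8.96%, 5.71% and 8.22% when thinned, at median depths of 3493, 2850 and 2767 UMIs against 1312, 3913 and 3291 in colonocyte-like cells.

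Slc9a3 (ENSMUSG00000036123, chromosome 13, 74121457 to 74169442), the apical exchanger that brings in sodium for protons, stood at 531, 471 and 637 CPM, highest in BT mutant. Its BT mutant over BT WT log2 ratio of 0.43 was not seen within clusters: of the 5 clusters with at least 50 cells of both libraries, 3 had less Slc9a3 in BT mutant and 2 had more, with a median log2 ratio of -0.039. It was highest in cluster 6, led by Car1 and Fabp2, at 778 CPM in BT WT and 757 in BT mutant, and that cluster held 532 BT mutant but 138 BT WT cells.

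Slc9a2 (ENSMUSG00000026062, chromosome 1, 40680574 to 40769273), another apical exchanger, was higher in both colonized libraries. It stood at 197 CPM (189 to 205) in PBS, 360.1 (352 to 369) in BT WT and 404 (395 to 412) in BT mutant. The ratio to PBS was 1.83 (1.75 to 1.91) in BT WT and 2.05 (1.96 to 2.14) in BT mutant. Both ratios rest on the same PBS library, where Slc9a2 stood at 203 CPM in the deep cluster 12 and at 119 in the shallow cluster 5. Both ratios were past 1.5-fold at mitochondrial limits of 10% and 25% and with none. The 10% limit compares other cells, keeping 575 of 1139 PBS colonocyte-like cells and 1247980 of their 12973833 UMIs. The part of the mitochondrial shares in the ratios was not tested. Between BT mutant and BT WT the ratio was 1.12 (1.09 to 1.16), and Slc9a2 was higher in BT mutant in all 5 shared clusters, by 1.5-fold or more in 1 of them. In thinned colonocyte-like cells 15.2%, 30.8% and 33.5% had a UMI (36.4%, 72.2% and 72.6% unthinned), against 0.886%, 1.29% and 1.46% of B-like cells.

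Atp12a (ENSMUSG00000022229, chromosome 14, 56365068 to 56388550), the catalytic subunit of the colonic proton-potassium pump, was low in the BT mutant library. It stood at 453 CPM (441 to 464) in PBS, 562 (551 to 572) in BT WT and 106 (102 to 110) in BT mutant. BT mutant was thus 5.30-fold lower than BT WT (5.07 to 5.55) and 4.27-fold lower than PBS (4.08 to 4.48). Only 0.0488% of the 12283 genes tested had a lower BT mutant over BT WT log2 ratio than the -2.30 of Atp12a. In thinned cells the share with a UMI was 25.7%, 37.6% and 13.1% (40.4%, 69.5% and 27.0% unthinned), against 1.28%, 1.52% and 0.639% of B-like cells.

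The lower Atp12a level held inside clusters. In cluster 0 it stood at 459 CPM in BT WT and 206 in BT mutant, in cluster 1 at 638 and 346, in cluster 6 at 379 and 37.2, in cluster 9 at 761 and 272, and in cluster 10 at 174 and 36.2, the last from 26 and 19 UMIs. All 5 clusters were past 1.5-fold, and the median log2 ratio within them was -1.45. So BT mutant was lower whichever cluster was read, but cluster 6, which held 13914273 of 22677727 colonocyte-like UMIs in BT mutant and 4524181 of 18478150 in BT WT, widened the gap in the class sum. The free RNA moved with it: Atp12a stood at 17.8, 17.9 and 6.06 CPM in B-like cells and at 47.4, 47.0 and 6.02 in T-like cells. Colonocyte-like cells held the posterior Hox gene Hoxb13, which marks the hindgut end, at 128, 222 and 107 CPM. In other classes it was lowest in BT mutant, at 182, 177 and 83.8 CPM in goblet-like, 161, 194 and 69.2 in unnamed epithelial, 138, 196 and 61.5 in stem/TA-like and 109, 193 and 60.1 in tuft-like cells. BT mutant was thus the lowest library in both Hoxb13 and Atp12a. Hoxb13 belongs to the gut position list, which did not share its order. In colonocyte-like cells, 1 of 7 tested list genes was higher and 1 lower in BT mutant than in BT WT (4.94% and 4.27% of all genes). The median log2 ratio was -0.011. Against PBS, 2 of 7 were higher and 0 lower (4.88% and 3.77%), with a median of 0.16. Whether the sampled stretch of colon plays a part in the Atp12a result was not tested.

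**Figure D2:**
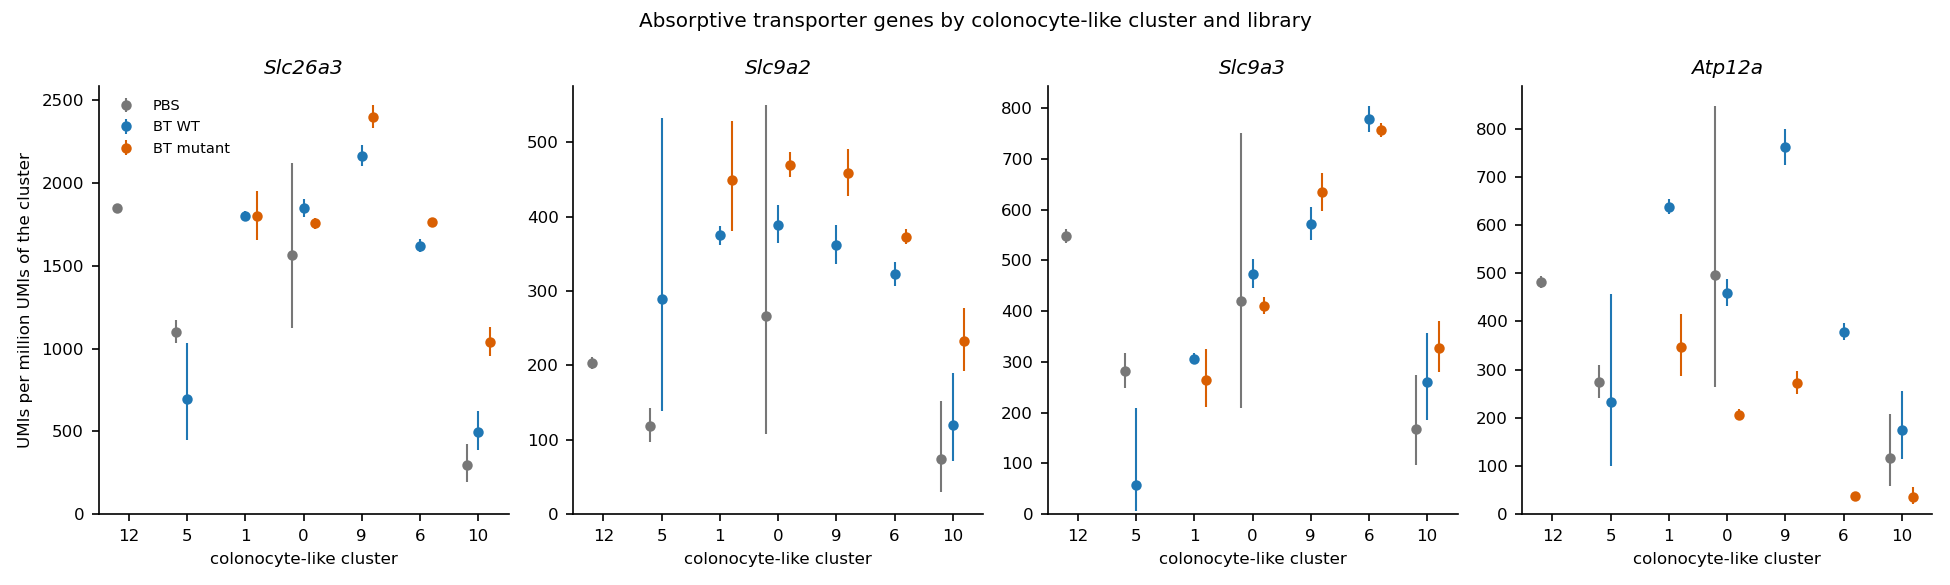
The 4 absorptive genes (CPM, with exact 95% Poisson intervals) in each colonocyte-like cluster that held at least 20 cells of a library. Atp12a is lower in BT mutant than in BT WT in clusters 1, 0, 9, 6 and 10, while Slc26a3 and Slc9a3 lie close together in clusters 1 and 0, and Slc9a2 is lowest in the PBS cells of clusters 12 and 5 and in cluster 10.

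The promoters of Slc26a3 and Slc9a3 are shown because these 2 genes followed each other most closely among the absorptive members: across 21 class-by-library sums of 7 classes, the Pearson r of log2(CPM + 10) was 0.971. The points share libraries and cell classes, so this is a description. RefSeq (GRCm38.p6) gave the 300 bases from 250 before to 50 after the start for 5 of the 10 genes. Capitals mark matches, on either strand, to 5 short motifs: TTTAT, the core bound by CDX factors, AGGTCA, a nuclear receptor half-site, AGAACA, a steroid receptor half-site, GGGCGG, a GC box core, and CTTTGA, a TCF core. Among all 32851 promoters of the table, 40.0%, 16.3%, 18.97%, 35.7% and 16.0% hold them. The Slc26a3 window (chr12:31437969-31438268, plus strand, 39.3% G and C) holds 4 of the 5, and its start, at 31438219, is that of a GENCODE transcript but lies 47348 bases inside the annotated gene, which begins with an upstream transcript. Its TCF core on the minus strand shares letters with the nuclear receptor half-site. The Slc9a3 window (chr13:74121163-74121462, plus strand, 68.7% G and C) holds 1, the GC box core, at 3 places. The 2 windows thus have no motif of the 5 in common.
Slc26a3: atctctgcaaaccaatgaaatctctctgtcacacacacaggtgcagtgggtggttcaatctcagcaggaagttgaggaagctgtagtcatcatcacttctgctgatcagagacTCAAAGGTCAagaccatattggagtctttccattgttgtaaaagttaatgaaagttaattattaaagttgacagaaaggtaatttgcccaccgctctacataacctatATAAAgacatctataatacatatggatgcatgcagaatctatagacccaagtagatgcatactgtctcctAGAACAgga
Slc9a3: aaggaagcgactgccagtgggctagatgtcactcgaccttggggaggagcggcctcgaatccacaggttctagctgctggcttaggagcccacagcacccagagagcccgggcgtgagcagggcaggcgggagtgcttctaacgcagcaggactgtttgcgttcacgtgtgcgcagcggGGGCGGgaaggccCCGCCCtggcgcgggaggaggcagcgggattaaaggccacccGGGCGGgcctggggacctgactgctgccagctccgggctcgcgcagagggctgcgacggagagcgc

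The 3 sodium channel subunits did not share 1 cell class. Scnn1a (ENSMUSG00000030340, chromosome 6, 125320659 to 125344943) was widespread in the epithelium, with 75.0% of its 9188 UMIs in colonocyte-like and 13.01% in goblet-like cells. Scnn1b (ENSMUSG00000030873, chromosome 7, 121865038 to 121918514) had 85.8% of its 1019 UMIs in goblet-like cells and 6.97% in colonocyte-like cells. Scnn1g (ENSMUSG00000000216, chromosome 7, 121734479 to 121768475) had 85.1% of its 693 UMIs in goblet-like cells and 6.49% in colonocyte-like cells. So the cells with most absorptive transporter RNA carried the alpha subunit with little beta or gamma.

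In colonocyte-like cells Scnn1a stood at 105, 152 and 120.2 CPM, highest in BT WT. Neither BT ratio to PBS nor their own ratio passed 1.5-fold, the BT WT over PBS log2 ratio being 0.50. Scnn1b in these cells stood at 3.08 CPM (2.20 to 4.20), 1.57 (1.05 to 2.25) and 0.0882 (0.0107 to 0.319), from 40, 29 and 2 UMIs. Scnn1g stood at 1.16, 1.35 and 0.220 CPM, from 15, 25 and 5 UMIs. Against B-like cells of the same library, Scnn1b was 3.92-fold higher in PBS (1.25 to 19.8, from 40 and 3 UMIs) and 2.05-fold higher in BT WT (0.636 to 10.5), the latter an interval that holds 1. For Scnn1g the ratios of 1.47 in PBS (0.416 to 7.92) and 1.77 in BT WT (0.540 to 9.15) were not told apart from 1, and in BT mutant B-like cells held no UMI of either gene. Apart from Scnn1b in PBS, these levels were therefore not told apart from free RNA as read in B-like cells. Goblet marker RNA in PBS was also higher in colonocyte-like than in B-like cells, at 2268 and 1262 CPM. Its part in the PBS Scnn1b value was not tested.

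Goblet-like cells came in 2 clusters, and the sodium channel separated them. The first, led by Clca1, Tff3 and Zg16, held 117, 762 and 86 cells. The second, led by Mptx1, Spink4 and Agr2 with the hormone genes Pyy and Gcg also among its leading genes, held 76, 68 and 56. In the Clca1 cluster Scnn1b stood at 224, 133 and 101 CPM, and in the Mptx1 cluster at 0.441, 1.07 and 2.57 CPM from 1, 2 and 3 UMIs. Scnn1g stood at 159, 90.9 and 33.7 CPM in the Clca1 cluster and at 0.882, 0.534 and 0 in the Mptx1 cluster, from 2, 1 and 0 UMIs. The gap between the clusters was present in each library for both genes. Scnn1a stood at 192, 171 and 173 CPM in the Clca1 cluster and at 33.5, 27.2 and 27.5 CPM in the Mptx1 cluster.

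Within the Clca1 cluster, Scnn1a was level while the other subunits were highest in PBS. Scnn1b was 1.69-fold lower in BT WT than in PBS (1.45 to 1.97) and 2.22-fold lower in BT mutant than in PBS (1.57 to 3.20). Between BT mutant and BT WT the Scnn1b ratio was 0.762 (0.536 to 1.05), an interval that holds 1. Scnn1g was 1.75-fold lower in BT WT than in PBS (1.45 to 2.11), 4.73-fold lower in BT mutant than in PBS (2.69 to 9.08) and 2.70-fold lower in BT mutant than in BT WT (1.56 to 5.11). The BT mutant values rest on 39 and 13 UMIs. The order against PBS depends on the cells kept. At a mitochondrial limit of 10%, chosen here after seeing the data, the Clca1 cluster keeps 15, 234 and 35 cells. Scnn1b then stood at 174 CPM (103 to 276), 156 (134 to 182) and 163 (99.3 to 251), with no library apart from the others. Scnn1g stood at 77.5 (33.5 to 153), 101 (83.3 to 122) and 56.9 (22.9 to 117), so PBS was no longer the highest. That limit also changes the mix of clusters, leaving 71, 286 and 69 goblet-like cells in all. Over all of them the BT WT over PBS log2 ratio was 1.89 for Scnn1b and 1.75 for Scnn1g, against 0.39 and 0.31 at the 25% limit, and the BT mutant over PBS ratio was 0.64 and 0.11, against -1.10 and -1.70.

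Scnn1g and Scnn1b lie on the same strand of chromosome 7, with 96562 bases between them. Their r over the 21 class-by-library sums was 0.972, and their promoters are shown as those of 2 neighbours with the same pattern. The Scnn1g window (chr7:121734229-121734528, plus strand, 64.7% G and C) holds TTTAT once and GGGCGG at 2 places. The Scnn1b window (chr7:121864788-121865087, plus strand, 61.7% G and C) holds AGGTCA and GGGCGG once each, both on the minus strand. The steroid receptor half-site AGAACA is in neither window, which says only that these letters are not there.
Scnn1g: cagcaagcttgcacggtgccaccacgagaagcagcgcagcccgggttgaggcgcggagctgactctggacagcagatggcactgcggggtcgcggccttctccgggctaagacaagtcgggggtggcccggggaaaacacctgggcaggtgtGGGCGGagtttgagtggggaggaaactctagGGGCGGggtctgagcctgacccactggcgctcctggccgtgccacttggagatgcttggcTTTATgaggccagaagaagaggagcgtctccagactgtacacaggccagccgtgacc
Scnn1b: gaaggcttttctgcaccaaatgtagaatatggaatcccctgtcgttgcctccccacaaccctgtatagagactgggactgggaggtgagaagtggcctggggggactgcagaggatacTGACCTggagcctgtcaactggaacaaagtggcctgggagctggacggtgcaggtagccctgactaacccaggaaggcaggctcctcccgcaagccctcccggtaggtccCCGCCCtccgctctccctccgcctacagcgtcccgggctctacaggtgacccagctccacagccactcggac

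Best2 (ENSMUSG00000052819, chromosome 8, 85007202 to 85014531) was a goblet-like gene in all libraries, with 81.6% of its 1919 UMIs there. In the Clca1 cluster it stood at 479 CPM in PBS, 110.5 in BT WT and 75.1 in BT mutant. In the Mptx1 cluster it stood at 186, 63.0 and 7.72 CPM. PBS was the highest library in both clusters, also at the 10% mitochondrial limit (436, 138 and 97.5 CPM in the first, 203, 62.4 and 7.29 in the second). BT WT was 4.33-fold lower than PBS in the first (3.82 to 4.92) and 2.94-fold lower in the second (2.40 to 3.64). BT mutant was 6.38-fold lower than PBS in the first (4.38 to 9.62) and 24.03-fold lower in the second (12.5 to 52.9, from 9 UMIs). Between BT mutant and BT WT it was 1.47-fold lower in the first (1.01 to 2.22) and 8.16-fold lower in the second (4.16 to 18.3). Best2 followed the same order outside these clusters, at 13.4, 3.75 and 0.111 CPM in the unnamed epithelial cluster and at 27.0, 10.7 and 0 CPM in stem/TA-like cells, where BT mutant was at least 5.24-fold lower than BT WT, taking 3 UMIs over the class as the limit that a count of 0 allows. In colonocyte-like cells it stood at 8.09, 2.49 and 0.176 CPM, in BT WT no higher than the 2.55 CPM of B-like cells. Goblet marker RNA in colonocyte-like cells, a measure of free goblet RNA, stood at 2268, 2555 and 512 CPM, lowest in BT mutant like Best2, and its part in the Best2 values was not tested.

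Slc12a2 (ENSMUSG00000024597, chromosome 18, 57878678 to 57946821), the basal chloride loader, was spread over several epithelial classes. The unnamed epithelial cluster held 36.6% of its 10643 UMIs, goblet-like cells 30.6% and stem/TA-like cells 18.8%. It stood at 369.9, 466 and 400 CPM in stem/TA-like cells and at 199, 189 and 223 in the unnamed cluster, with no pair of libraries past 1.5-fold in those compared. In the Mptx1 cluster it was within 1.5-fold too, at 473, 543 and 455 CPM. In the Clca1 cluster it stood at 267, 76.96 and 51.8 CPM, and was 3.47-fold lower in BT WT than in PBS (2.95 to 4.08) and 5.16-fold lower in BT mutant than in PBS (3.28 to 8.59). Between BT mutant and BT WT the interval of 1.49-fold lower (0.948 to 2.46) holds 1. At the 10% mitochondrial limit the values were 456, 98.6 (80.8 to 119) and 24.4 CPM (5.03 to 71.2), the last from 3 UMIs. The BT mutant interval then lay below that of BT WT. At that limit the Mptx1 cluster stood at 446 (416 to 478), 523 and 455 CPM. The 2 goblet-like clusters thus differed in Slc12a2 level in BT WT and BT mutant. In PBS the level difference depended on the cells kept. At the 10% limit the PBS interval of the Clca1 cluster (335 to 606) held the PBS value of the Mptx1 cluster. The clusters also differed in how Slc12a2 compared with PBS, and that difference was not tested.

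Cftr (ENSMUSG00000041301, chromosome 6, 18170687 to 18322768) was shared by the unnamed epithelial cluster, with 56.2% of its 6748 UMIs, and stem/TA-like cells. It stood at 217, 201 and 196 CPM in the former and at 165, 181 and 157 in the latter, and these 2 classes were not told apart in every library. In the Mptx1 cluster it stood at 89.1, 97.8 and 97.0 CPM, and in the Clca1 cluster at 6.88, 3.75 and 2.59 CPM. In colonocyte-like cells Cftr stood at 41.8, 18.9 and 23.4 CPM, 2.21-fold lower in BT WT than in PBS (1.93 to 2.54), but with clusters that differed: BT WT and BT mutant had 56.4 and 33.4 CPM in cluster 6 and 80.3 and 72.4 in cluster 10, against 3.04 to 8.81 in clusters 0, 1 and 9. The BT WT over PBS log2 ratio of -0.84 became 0.20 at a mitochondrial limit of 10%.

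**Figure D3:**
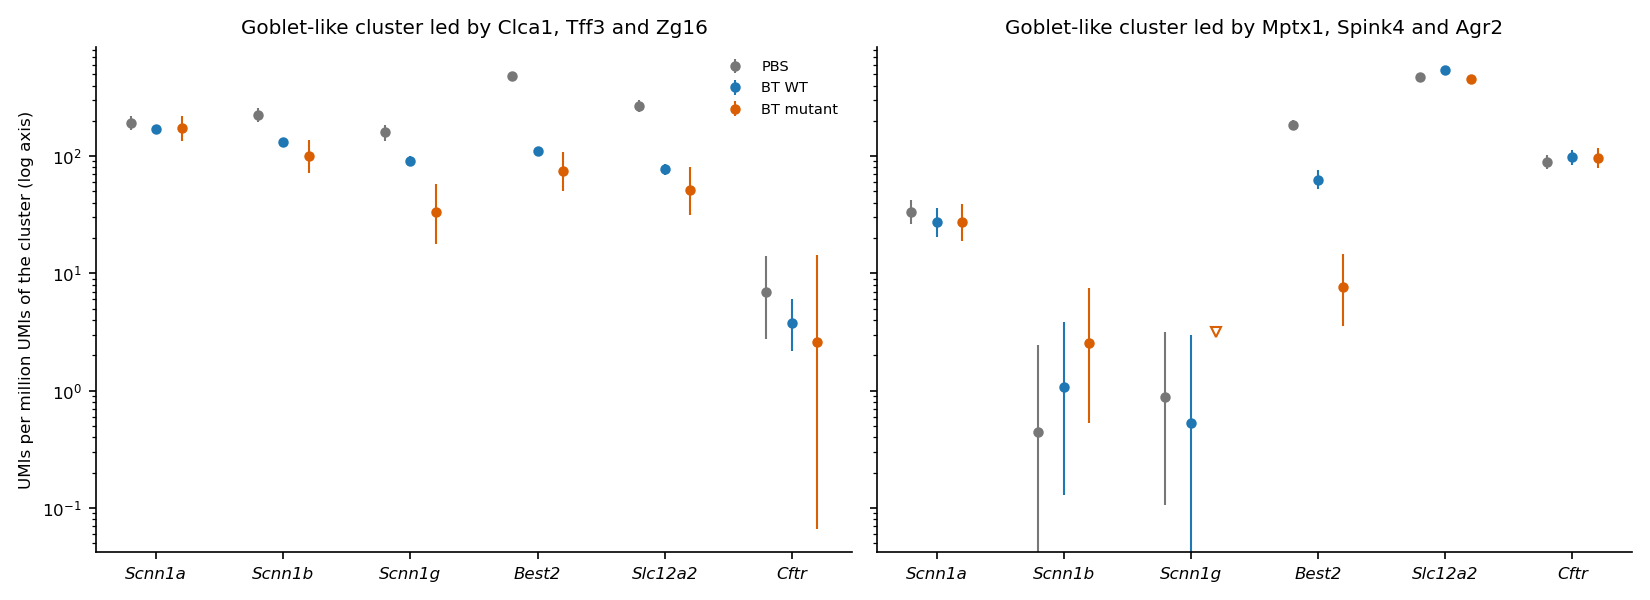
Sodium channel subunits and secretory transporters (CPM, log axis, exact 95% Poisson intervals; an open triangle is the upper limit at 0 UMIs) in the 2 goblet-like clusters. Scnn1b and Scnn1g are high in the Clca1 cluster and near 0 in the Mptx1 cluster, Cftr the reverse, and Best2 is highest in PBS in both.

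The count of members past 1.5-fold was small in colonocyte-like cells. On the log2(CPM + 10) scale, BT WT over PBS had 1 higher member (Slc9a2) and 1 lower (Cftr) of 10, where 12.3% of all 12101 genes tested were higher and 8.23% lower by that fold. BT mutant over BT WT had 0 higher and 1 lower (Atp12a) of 10, where 4.94% of genes were higher and 4.27% lower. BT mutant over PBS had 1 higher (Slc9a2) and 3 lower (Atp12a, Cftr and Best2) of 10, where 4.88% were higher and 3.77% lower. Of these, Best2 in BT mutant rests on 4 UMIs, at 0.176 CPM against 0.303 in B-like cells, so it was not above free RNA there. The median log2 ratio of the 10 genes was 0.0090, -0.17 and -0.25, beside 0.065, -0.048 and 0.028 for all genes. The share of members was near the background in the first 2 comparisons. Comparisons with a library in common are not independent of each other.

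**Figure D4:**
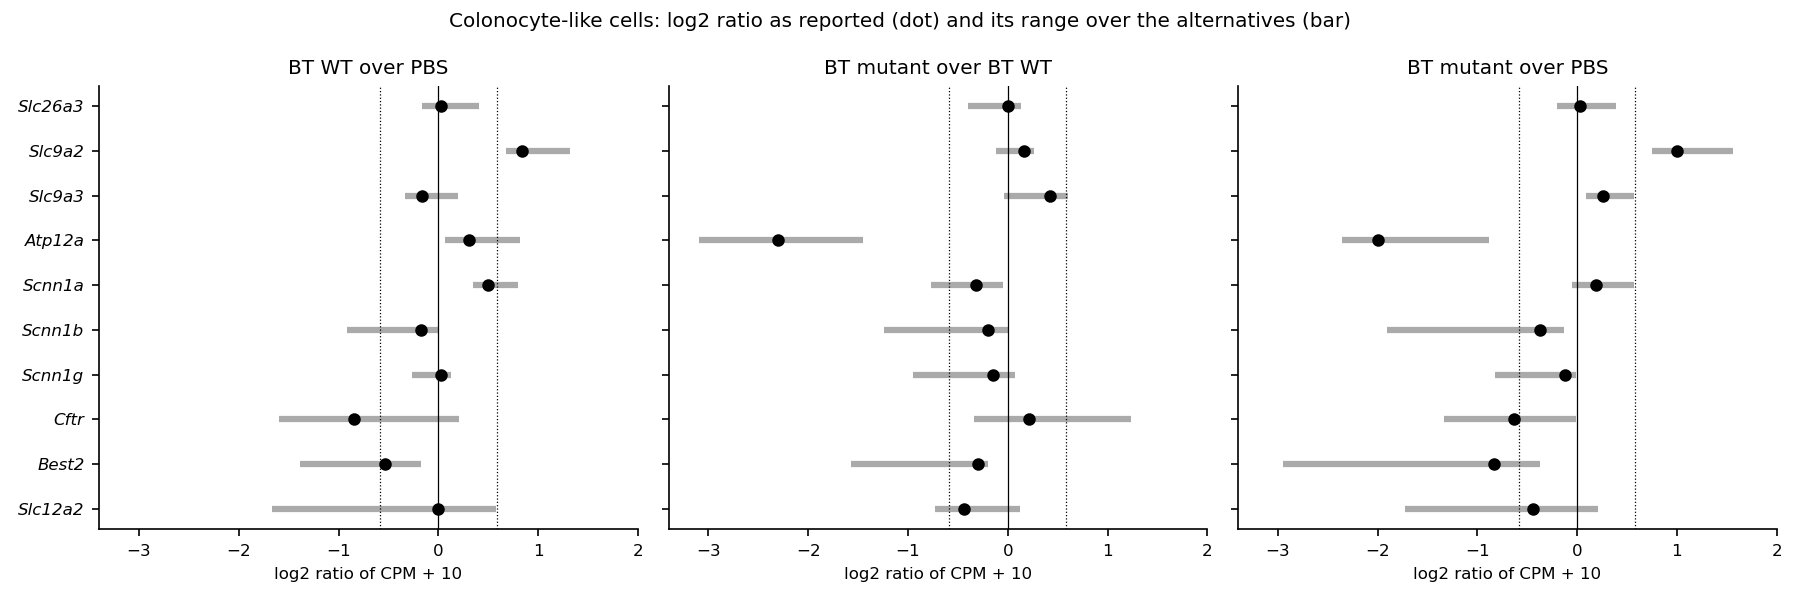
Log2 ratio of CPM + 10 for each gene in colonocyte-like cells and each comparison (dot) with its lowest and highest value over the alternative settings (bar); dotted lines mark 1.5-fold. Atp12a stays below the lower line in both BT mutant comparisons and Slc9a2 above the upper line in both comparisons with PBS.

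Goblet-like cells summed over both clusters showed more. BT WT over PBS had 5 higher and 3 lower members of 10, where 8.56% of all genes were higher and 10.7% lower. BT mutant over BT WT had 2 higher and 7 lower (13.7% and 10.1% of genes), and BT mutant over PBS 3 higher and 4 lower (3.13% and 3.84%). These counts mix the clusters, since the Clca1 cluster gave 4534663 of 6406753 goblet-like UMIs in BT WT but 1017410 of 3285529 in PBS and 386236 of 1551568 in BT mutant. Within the Clca1 cluster BT WT over PBS had 4 higher and 4 lower of 10, where 10% of genes were higher and 4.69% lower. BT mutant over BT WT had 0 higher and 2 lower, Atp12a and Scnn1g, of 9 with enough UMIs (3.81% and 11.5% of genes), and BT mutant over PBS 3 higher and 5 lower of 9 (10.9% and 14%). Within the Mptx1 cluster BT WT over PBS had 0 higher and 1 lower (Best2) of 8 (1.36% and 2.59%). BT mutant over BT WT had 3 higher (Slc26a3, Slc9a2 and Slc9a3) and 1 lower (Best2) of 7 (3.19% and 4.55%), and BT mutant over PBS also 3 higher and 1 lower of 7 (3.62% and 5.88%). Slc9a3 there stood at 4.85, 4.81 and 42.05 CPM, 8.75-fold higher in BT mutant than in BT WT (4.25 to 20.3). That ratio rests on 49 and 9 UMIs, and B-like cells held Slc9a3 at 25.7 and 15.6 CPM in these libraries. In the same order Slc26a3 stood at 64.4 and 25.6 CPM, against 78.4 and 63.2 in B-like cells. Slc9a2 stood at 22.3 and 11.2 CPM, against 15.1 and 16.3. The part of free RNA in these 3 higher members was not tested.

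In goblet-like cells the absorptive genes stood beside colonocyte RNA. In the Clca1 cluster Slc26a3 stood at 76.7, 521 and 368 CPM, Slc9a2 at 3.93, 107 and 122, and Slc9a3 at 22.6, 93.1 and 95.8. Colonocyte markers summed to 7266, 12948 and 9890.3 CPM there and to 1912, 1803 and 2334 CPM in the Mptx1 cluster, and their part in these values was not tested. Atp12a in the Clca1 cluster stood at 79.6, 255 and 33.7 CPM, 7.58-fold lower in BT mutant than in BT WT (4.42 to 14.3), the same direction as in colonocyte-like cells. At the 10% mitochondrial limit, which keeps 15, 234 and 35 cells of the Clca1 cluster, the order against PBS changed. Slc26a3 then stood at 252 (165 to 369), 77.2 and 81.3 CPM, highest in PBS. Slc9a2 stood at 0 (0 to 35.8), 10.2 and 16.3 CPM, and Slc9a3 at 9.69 (0.245 to 54.0), 20.5 and 32.5. Atp12a stood at 77.5, 115 and 8.13 CPM, the last from 1 UMI. Dissociation stress genes moved in these cells too: over both clusters, 10 of 15 were lower in BT mutant than in PBS, with a median log2 ratio of -0.65, and 3 were lower and 0 higher in BT mutant than in BT WT, with a median of -0.40. Their part in the goblet-like results was not tested.

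In the unnamed epithelial cluster, 3 of 8 tested members were higher in BT WT than in PBS and 1 was lower, where 1.99% of genes were higher and 1.48% lower. The higher ones were Slc26a3, at 86.0, 193 and 193 CPM, Slc9a2, at 48.1, 83.3 and 69.6, and Slc9a3, at 28.5, 65.9 and 45.9. The lower one was Best2. BT mutant over BT WT had 0 higher and 1 lower, Atp12a, at 3.11 against 18.9 CPM (1.11% and 2.46% of genes), and BT mutant over PBS had 1 higher and 2 lower (1.25% and 2.68%). B-like cells held Atp12a at 6.06 CPM in BT mutant and 17.9 in BT WT. The Atp12a levels of this cluster were thus near or below free RNA, whose part in the ratio was not tested. Colonocyte markers stood at 4779, 7523 and 7168 CPM in this cluster, lowest in PBS like the 3 absorptive genes, and their part was not tested. Of 15 stress genes, 9 were lower in BT mutant than in BT WT there, with a median log2 ratio of -0.66, and their part was not tested either. In stem/TA-like cells, compared between BT mutant and BT WT, 1 of 6 tested was higher, Slc9a2 from 41 against 23 UMIs, and 0 lower (2.77% and 4.66% of genes). In tuft-like cells 1 was higher (Cftr) and 3 lower (Slc9a2, Atp12a and Scnn1a) of 7 (8.75% and 10%). The same BT WT and BT mutant tuft-like cells held colonocyte markers at 7261 and 5209.8 CPM and goblet markers at 9551 and 310.2 CPM, and the part of this RNA in the 3 lower values was not tested.

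Genes around the transporters were read from 4 lists in colonocyte-like cells, against the shares of all genes past 1.5-fold given above. Their pooled median log2 ratio was -0.028 for BT WT over PBS, 0.0019 for BT mutant over BT WT and 0.022 for BT mutant over PBS. Of the list of other exchangers and their anchors, 2 of 12 tested were higher and 1 lower in BT WT over PBS (12.3% and 8.23% of all genes), 2 higher and 0 lower in BT mutant over BT WT (4.94% and 4.27%), and 1 higher and 0 lower in BT mutant over PBS (4.88% and 3.77%). Its most abundant gene, the sulfate transporter Slc26a2, stood at 1355, 1467 and 998 CPM. Slc4a4, a sodium bicarbonate cotransporter, stood at 22.2, 50.01 and 43.9 CPM and was 2.25-fold higher in BT WT than in PBS (1.97 to 2.58), and Ezr, the membrane anchor ezrin, stood at 1005, 548 and 873 CPM, 1.59-fold higher in BT mutant than in BT WT (1.55 to 1.63).

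The sodium pump and potassium path list had 3 higher and 2 lower of 14 in BT WT over PBS (12.3% and 8.23% of all genes), 0 and 1 of 14 in BT mutant over BT WT (4.94% and 4.27%), and 2 and 1 of 13 in BT mutant over PBS (4.88% and 3.77%). Fxyd4, a sodium pump regulator known from distal colon and kidney, stood at 14.0, 9.90 and 0.0882 CPM, the last from 2 UMIs, with a BT mutant over BT WT ratio of 0.0089 (0.0011 to 0.033). It was therefore low in the same library as Atp12a. Slc12a7, a potassium chloride cotransporter, stood at 25.1, 60.99 and 46.7 CPM.

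The list of aldosterone action and sodium channel control had 4 higher and 4 lower of 18 in BT WT over PBS (12.3% and 8.23% of all genes), 2 and 0 of 19 in BT mutant over BT WT (4.94% and 4.27%), and 2 and 3 of 18 in BT mutant over PBS (4.88% and 3.77%). Sgk1, a kinase that keeps the sodium channel at the membrane, stood at 736, 310.1 and 422 CPM. Tsc22d3, a glucocorticoid and aldosterone target, stood at 81.5, 20.3 and 50.4 CPM, so both were lowest in BT WT. Hsd11b2, which shields the aldosterone receptor from glucocorticoids, stood at 124, 49.95 and 115 CPM, and Nr3c2, that receptor, at 111, 284 and 218 CPM. BT WT was thus lowest in the first and highest in the second.

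The chloride secretion list had 5 higher and 2 lower of 19 in BT WT over PBS (12.3% and 8.23% of all genes), 4 and 0 of 18 in BT mutant over BT WT (4.94% and 4.27%), and 5 and 0 of 19 in BT mutant over PBS (4.88% and 3.77%). Clic5, a chloride channel-like protein of microvilli, stood at 319.6, 551 and 375 CPM. Clcn2, a chloride channel of the epithelium, stood at 153, 134 and 261 CPM. Cystm1 stood at 503, 215 and 369 CPM, and the anoctamin Ano9 at 11.4, 38.0 and 31.7 CPM. The lists of gut position and dissociation stress, read beside these, had medians of 0.52 and -0.32 for BT WT over PBS, -0.011 and 0.20 for BT mutant over BT WT, and 0.16 and 0.029 for BT mutant over PBS. Atf3, a stress gene, stood at 1085, 546 and 1154 CPM and was 2.11-fold higher in BT mutant than in BT WT (2.07 to 2.16).

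The genes whose pattern was most like that of each member were found by r over the same 21 sums among 6567 genes. Cyp4f14 was the nearest to both Slc26a3 (0.987) and Slc9a3 (0.985), Fam189a2 to Slc9a2 (0.968) and Saa2 to Atp12a (0.905). Plxna2 was nearest to Scnn1a (0.980). Gal3st2c was nearest to Scnn1b (0.990) and to Scnn1g (0.959). Wfdc2, one of the genes leading the unnamed epithelial cluster, was nearest to Cftr (0.977), Sval1 to Best2 and Cldn2 to Slc12a2 (0.961). Among the members, Best2 followed Scnn1b at 0.938, whereas Slc26a3 and Scnn1b had an r of -0.065.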

How the data were processed

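The deposited matrices hold raw UMI counts for each gene in each barcode; per the file headers Cell Ranger 5.0.0 wrote them. Per the submitters' processing notes, Cell Ranger and STAR were used with mm10, while the annotation release is not given in the sources used here. Barcodes with at least 300 genes and at most 25% mitochondrial UMIs were kept (72.3% in PBS, 80.1% in BT WT and 74.9% in BT mutant). Counts per cell were scaled to 10000 and log-transformed. Clustering used 2000 variable genes, 30 components, 15 neighbours and Leiden (leidenalg 0.10.2) at a resolution of 1.0, leaving out the 10 genes. Clusters were named by marker scores scaled from 0 to 1: epithelial from 0.65 with no other class at 0.5, then by 3 markers among the 10 leading genes or a score of 0.6. These thresholds were set after clusters were seen. Scrublet in scanpy 1.11.5 called 0, 122 and 85 doublets; none were removed in the values as reported.

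Counts were summed per class and library. Ratios are log2 of CPM plus 10, for genes with at least 20 UMIs over both libraries in classes with at least 50 cells in each. Folds are CPM ratios without the 10, with exact conditional binomial intervals, Poisson intervals for levels; the interval code was tested on simulated data. The genes named are the 10 members, per list in colonocyte-like cells the most abundant gene and that with the largest ratio per comparison (at least 30 UMIs), and the genes most like each member in pattern. Genes outside this rule are said to be chosen after their values were seen. One gene that the rule names is not reported here. Positions come from GENCODE vM21 (GRCm38). The members and lists were chosen with earlier results of these data known. Scnn1d of the aldosterone list was not analysed here. The labels do not say whether mice were pooled.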

Additional observations from a re-analysis of the deposited data

Results flagged for a closer look

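For Slc9a2 the ratio of BT mutant over BT WT had opposite signs in different epithelial classes, 2 of them at levels near free RNA. Its log2 ratio was 0.73 in stem/TA-like cells, 0.61 in the goblet-like cluster 19 (led by Mptx1) and -0.71 in tuft-like cells. The difference between these classes was not tested, and the BT mutant values rest on 41 UMIs in stem/TA-like cells, 26 in that goblet-like cluster and 43 in tuft-like cells. Tuft-like cells of BT WT and BT mutant also held colonocyte markers at 7261 and 5209.8 CPM and goblet markers at 9551 and 310.2 CPM, and the part of this RNA in the Slc9a2 values was not tested.

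Barcodes left out for more than 25% mitochondrial UMIs (952 in PBS, 1687 in BT WT and 1874 in BT mutant) also held transporter RNA. There, Slc9a2 was at 129 CPM in PBS and at 259 and 324 CPM in BT WT and BT mutant. Slc9a3 stood at 459 CPM in BT mutant, against 280.0 in PBS and 306 in BT WT. For Atp12a the BT WT value was 546 CPM, the PBS value 233 and the BT mutant value 130.2.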

How the results depend on the processing

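No paired analysis was possible because each group has 1 library. Atp12a in colonocyte-like cells kept its direction and its side of 1.5-fold in all 14 alternatives for BT mutant over BT WT (log2 -3.10 to -1.45) and in all 13 for BT mutant over PBS, as did Slc9a2 over PBS in all 13 and Best2 over PBS in goblet-like cells in all 15. Among the alternatives, dropping the minimum of 20 UMIs cannot change a member's log2 ratio, so its agreement was fixed in advance. The 2 single-cluster settings and the within-cluster median were chosen after seeing the data. Where values changed, the cause was not tested, apart from the cluster mix that the single-cluster settings remove.

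In colonocyte-like cells, members past 1.5-fold between BT WT and PBS (2 as reported) numbered 5 at a mitochondrial limit of 10%, 1 with no limit, 7 with cells weighted equally, 5 with cells thinned, 1 with each cell named by its own score, 6 with libraries clustered apart and 4 with a pseudocount of 1 CPM. Between BT mutant and BT WT (1 as reported) there were 2 at the 10% limit, 2 with no limit, 2 with libraries clustered apart and 5 with the smaller pseudocount. Between BT mutant and PBS (4 as reported) there were 2 with no limit, 2 with own scores and 7 with the smaller pseudocount. The median of the 4 lists for BT WT over PBS was 0.26 at the 10% limit and -0.15 with median-ratio scaling, and Cftr turned to 0.20 at the 10% limit. In goblet-like cells the count between BT WT and PBS (8 as reported) was 5 at the 10% limit, that between BT mutant and BT WT (9) was 4 with thinning, and that between BT mutant and PBS (7) was 4 with thinning. The share of all genes past 1.5-fold was not computed under these alternatives. These counts therefore have no background beside them and are not read as a result about the members.

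Some log2 ratios in goblet-like cells turned direction. Over BT WT, in BT mutant, Slc26a3 was 0.54 and Slc9a2 0.75 at the 10% limit, and Slc9a2 0.084 with thinning. Over PBS, in BT mutant, Scnn1b was 0.64 and Scnn1g 0.11 at the 10% limit, and Slc26a3 was -0.52 with no limit and -0.091 with own scores. Cftr in BT WT over PBS was 0.067 with libraries clustered apart. Scnn1b and Scnn1g in BT WT over PBS each kept their direction in 10 of 15 alternatives, over ranges of -0.72 to 1.89 and -0.75 to 1.75.

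With the Mptx1 cluster alone, the 3 goblet-like counts were 1, 4 and 4. In BT WT over PBS, Slc9a3 was then -0.0041, Scnn1a -0.22, Cftr 0.12 and Slc12a2 0.19. In BT mutant over BT WT, Slc26a3 was 1.06, Slc9a2 0.61, Scnn1a 0.0084, Scnn1b 0.18, Cftr -0.011 and Slc12a2 -0.25. In BT mutant over PBS, Scnn1b was 0.27. With the Clca1 cluster alone, the count between BT mutant and BT WT was 2. Scnn1a in BT WT over PBS was then -0.16, and in BT mutant over BT WT Slc9a2 was 0.17, Scnn1a 0.022, Cftr -0.13 and Slc12a2 -0.49. Median-ratio scaling moved the median of all genes in colonocyte-like cells by -0.17 for BT WT over PBS. Classes of few cells or few UMIs, such as the Mptx1 cluster, limit what could be resolved.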

Other observations

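Genes in this paragraph were chosen after their values were seen. In goblet-like cells, where Scnn1b and Scnn1g lay, Hsd11b2 stood at 748 CPM in PBS, 311 in BT WT and 178 in BT mutant, and Nr3c2 at 94.0, 256 and 94.1 CPM. These sums mix the 2 goblet-like clusters in different shares. Outside the epithelium, Slc12a2 stood at 107 CPM (76.2 to 146) in PBS, 33.6 (17.9 to 57.4) in BT WT and 24.96 (13.3 to 42.7) in BT mutant endothelial-like cells. The fibroblast-like cells had 51.1, 19.4 and 25.5 CPM of it. Both were above its level in B-like cells, at 13.1, 8.67 and 6.06 CPM.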
